A study of Homo sapiens with 6 samples.

Results

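The 10 genes described here encode the 7 inhibitors of cyclin-dependent kinases (CDKs) together with cyclin D1, CDK4 and CDK6. They were chosen by name: the INK4 inhibitors CDKN2A, CDKN2B, CDKN2C and CDKN2D, the CIP/KIP inhibitors CDKN1A, CDKN1B and CDKN1C, and CCND1, CDK4 and CDK6, which make up 10 of the 30015 genes in the expression table. RNA sequencing was done on HMV-II, an established line of human mucosal melanoma cells derived from a vaginal tumour. The Vector group (3 libraries) carried a control lentiviral construct with a scrambled short hairpin, and the shEZH2 group (3 libraries) carried a hairpin against EZH2, the methyltransferase subunit of Polycomb repressive complex 2. Both were puromycin-selected stable lines of HMV-II cells labelled as wild type, so all libraries shared the parental genotype and differed in the hairpin. The table names 1 hairpin against EZH2. Nothing in the labels says that the 3 libraries of a group came from separate cultures, and p-values therefore measure the spread between these libraries, which may be technical.

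Cyclin D1 binds CDK4 or CDK6, and the active kinase phosphorylates the retinoblastoma protein and its relatives, which then release E2F transcription factors and let cells leave G1. INK4 proteins bind CDK4 and CDK6 directly and keep D-type cyclins away, whereas CIP/KIP proteins bind complexes of cyclins with kinases and act mainly on CDK2. The INK4 locus holds CDKN2A and CDKN2B side by side and is a textbook target of Polycomb repression, and this axis is often altered in melanoma through gain of CCND1 or CDK4 or loss of CDKN2A.

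The promoter sequences of the 9p21 genes are shown because the comparison asks whether less EZH2 went with a different level of these transcripts, and Polycomb complexes in mammals are known to gather at stretches rich in CpG. CDKN2A has separate promoters for the transcripts of p16 and of ARF, whose reads are summed in its row of the table. Each line gives the 250 bases before a RefSeq start (GRCh38.p14), 5′ to 3′ on the minus strand, with every CpG in capitals; the windows are chr9:22009306-22009555 for CDKN2B, chr9:21995325-21995574 for the ARF start and chr9:21974858-21975107 for the p16 start.
CDKN2B: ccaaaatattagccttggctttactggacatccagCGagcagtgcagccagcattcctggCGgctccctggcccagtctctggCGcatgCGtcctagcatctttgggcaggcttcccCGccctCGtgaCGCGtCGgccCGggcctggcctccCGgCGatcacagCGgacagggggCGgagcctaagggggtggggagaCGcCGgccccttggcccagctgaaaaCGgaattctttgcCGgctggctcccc
CDKN2A, ARF start: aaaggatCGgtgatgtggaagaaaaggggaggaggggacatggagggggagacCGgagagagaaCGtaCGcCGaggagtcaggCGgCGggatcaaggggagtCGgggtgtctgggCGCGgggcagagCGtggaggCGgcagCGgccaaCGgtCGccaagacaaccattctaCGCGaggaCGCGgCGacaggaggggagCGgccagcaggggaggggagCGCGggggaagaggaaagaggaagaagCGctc
CDKN2A, p16 start: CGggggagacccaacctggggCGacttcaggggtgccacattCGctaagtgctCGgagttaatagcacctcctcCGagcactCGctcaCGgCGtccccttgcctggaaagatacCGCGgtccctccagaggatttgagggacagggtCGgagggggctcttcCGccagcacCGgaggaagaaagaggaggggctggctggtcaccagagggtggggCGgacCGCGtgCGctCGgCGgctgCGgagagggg
The CDKN2B window held 18 CpGs, and those of the ARF and p16 starts held 24 and 20. RefSeq entries matched 8 of the 10 genes, with 12 starts among them, and CCND1 and CDKN1C had no entry. The median was 23.5 CpGs over these 12 windows and 11 over all 35116 promoter windows of the same length. GGGCGG, the core of a GC box, was searched on both strands and was found in 9 of the 12 windows and in 42.6% of all windows. TTTGGCGC and TTTCCCGC, forms of the E2F site, were in 0 of the 12 windows and in 0.55% and 1.39% of all windows.

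The CDK4 window is shown for its E-boxes, the CACGTG palindrome that MYC and related factors bind. It spans chr12:57752311-57752560 on the minus strand of GRCh38.p14, and the capitals mark the E-boxes.
CDK4: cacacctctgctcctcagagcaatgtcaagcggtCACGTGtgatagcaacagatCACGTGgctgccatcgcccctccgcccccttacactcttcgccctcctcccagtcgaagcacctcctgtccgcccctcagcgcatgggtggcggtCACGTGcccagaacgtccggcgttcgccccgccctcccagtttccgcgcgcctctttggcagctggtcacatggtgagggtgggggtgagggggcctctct
This window held 3 copies of CACGTG. The palindrome was present in 3 of the 12 windows, the others being at CDKN2C starts, and in 6.35% of all windows. Such matches describe the letters in a window and were not tied to any change in expression here.

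Library depth was 13400290 to 15923029 reads assigned to genes in Vector and 16129171 to 19128939 in shEZH2. Vector replicate 2 stood apart from the other libraries. Its reads differed from those of Vector replicates 1 and 3 by a mean chi-square per gene of 120 and 117, against 2.21 between replicates 1 and 3, where counting error alone gives about 1, and 6.93 to 23.5 between shEZH2 libraries. The departure went with gene length: the median log2 difference of Vector replicate 2 from the mean of the other Vector libraries was -0.54 in the shortest 20% of genes and 0.42 in the longest 20%. The results for the 10 genes are therefore given with all 6 libraries and without this library. Fits without it have only Vector replicates 1 and 3 as controls. Their p-values rest in part on the small spread between these libraries. The targeted gene behaved as labelled: EZH2 had 483, 437 and 552 normalized counts (reads divided by the library's size factor) in Vector and 237, 247 and 225 in shEZH2, so that the groups were well apart. Its log2 fold change was -1.04 ± 0.15 (SE, n = 3 per group; limma, Benjamini-Hochberg adjusted p = 0.0142) and -1.12 without Vector replicate 2. The cells expressed the melanocyte lineage genes SOX10 (17491 ± 1589, SD, n = 3, in Vector) and PMEL (60992 ± 10731), and of 7 measured markers of other cell types 6 were below the filter, among them PTPRC of leukocytes and PECAM1 of endothelium, at or below 11.6 and 5.23 normalized counts in every library. The seventh, the stromal proteoglycan gene LUM, had 148 ± 24.7 normalized counts in Vector and 247 ± 33.9 in shEZH2 (SD, n = 3), and was called higher (limma adjusted p = 0.0772), while the stromal genes COL1A1 and DCN stayed at or below 4.79 and 1.91. The part of other cells in the results was not tested.

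None of the 10 genes met the call rule used for the table, an unadjusted p under 0.05 in limma with a change above 1.5-fold (0.585 on the log2 scale). All 10 averaged 10 normalized counts or more, the filter on low values, and were tested among 15251 genes, of which 14.6% were called. CDKN2B came closest and was the only one with an unadjusted p under 0.05, which 23.2% of all genes had. At an adjusted p under 0.05 limma called 0 of the 10, edgeR 0 and DESeq2 1, CDKN2B. Of all 15251 genes, 348 were higher and 281 lower at that level in limma. The counts were 379 and 300 in edgeR (TMM factors) and 770 and 874 in DESeq2. With the fold rule on the unadjusted p both edgeR and DESeq2 called CDKN2B, among 2277 and 2366 genes called. In bulk RNA, a change in every cell and a change in the share of cells that carry the transcript cannot be told apart.

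**Figure D1:**
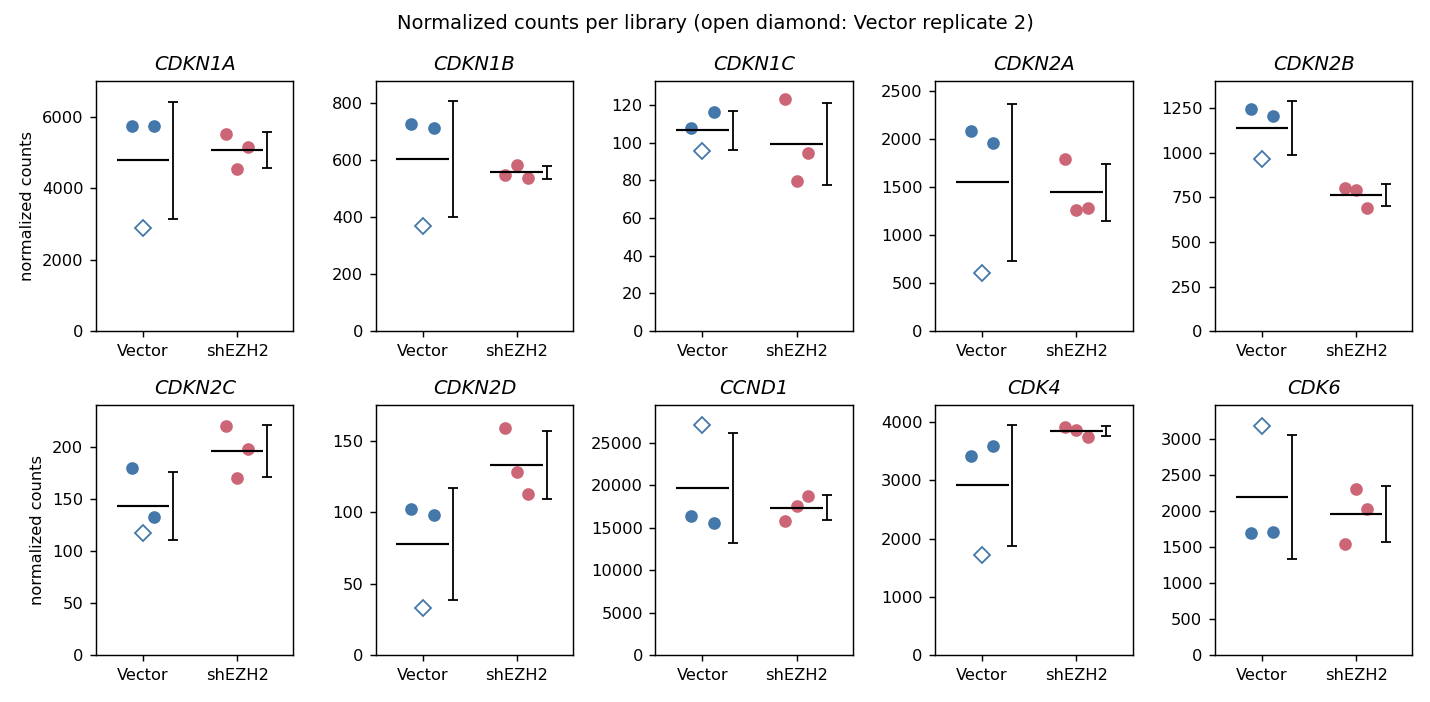
Normalized counts (y axes from 0, a scale per gene) of the 10 genes in 3 Vector and 3 shEZH2 libraries. Points are libraries, the open diamond is Vector replicate 2, horizontal lines are group means and error bars are 1 SD; CDKN2B, CDKN2D and CDK4 have groups that do not overlap, and Vector replicate 2 is the lowest or highest of the 6 libraries in 8 genes.

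The median log2 fold change over the 10 genes was 0.01, against 0.04 over all genes tested. The median size of the change, regardless of direction, was 0.14 on the log2 scale for these genes and 0.32 for all genes. The groups did not overlap for 3 of the 10 genes, CDKN2B, CDKN2D and CDK4, while 34.8% of all genes tested had groups that did not overlap. With 3 libraries per group the smallest p that an exact two-sided permutation test can give is 0.1. The intervals were wide: for 9 of the 10 genes the 95% interval of the log2 fold change included 0, and for all 10 it included a change of 1.5-fold in some direction, so the data do not show that these transcripts stayed level.

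Of the INK4 genes, CDKN2B was lower and CDKN2C and CDKN2D were higher in the mean of shEZH2. CDKN2A had a fold change near 0 whose direction turned without Vector replicate 2 and also under edgeR, DESeq2 and removal of the length trend. CDKN2B encodes p15, an inhibitor known for its induction by TGF-beta. Its transcripts (ENSG00000147883, chr9:22002903-22009363) had 1248, 968 and 1208 normalized counts in Vector and 805, 789 and 691 in shEZH2. The 3 shEZH2 values were all lower than the 3 Vector values, that of Vector replicate 2 included. The mean went from 1141 ± 152 to 762 ± 61.4 (SD, n = 3 each), a log2 fold change of -0.58 ± 0.15 (SE, 95% interval -0.93 to -0.22; limma, Benjamini-Hochberg adjusted p = 0.0799). This came just short of the fold that the call rule asks for. Without Vector replicate 2, against Vector replicates 1 and 3 only, it passed both parts of the rule, at -0.69 (interval -0.93 to -0.45, limma adjusted p = 0.000965).

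CDKN2A encodes p16 and, in another reading frame, ARF, which holds back MDM2. Its normalized counts were 2087, 611 and 1962 in Vector and 1791, 1262 and 1287 in shEZH2, with means of 1553.5 ± 818.4 and 1446.6 ± 298.6 (SD, n = 3 each). The ratio of these means, shEZH2 over Vector, was 0.931. The log2 fold change from limma compares means of log2 values instead and can differ from that ratio in direction. Vector replicate 2 was the lowest of the 6 libraries at 30.2% of the mean of the other Vector libraries, and all 3 shEZH2 libraries lay between it and them. With all libraries the log2 fold change was 0.07 ± 0.45 (SE, interval -0.98 to 1.12, limma adjusted p = 0.935), an interval wide enough to hold a 1.5-fold change in either direction. Without Vector replicate 2 the value was -0.50 (interval -0.81 to -0.20, limma adjusted p = 0.0241), a lower level in shEZH2 that remained under 1.5-fold. The ratio of CDKN2A to CDKN2B, each per kilobase of gene length, was 1.57, 0.592 and 1.52 in Vector and 2.09, 1.499 and 1.75 in shEZH2. Vector replicates 1 and 3 lay near the low end of the shEZH2 range, and Vector replicate 2 was far below it.

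CDKN2C encodes p18. It was measured at 180, 118 and 132 normalized counts in Vector and 221, 171 and 199 in shEZH2. The highest Vector library exceeded the lowest shEZH2 library, so the groups overlapped. The difference was 0.47 ± 0.21 on the log2 scale (SE, interval -0.01 to 0.95, limma adjusted p = 0.221) and 0.34 without Vector replicate 2 (adjusted p = 0.199).

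CDKN2D encodes p19, the INK4 protein whose transcript is the shortest of the 10 genes in the table, at 1503 bases. Normalized counts were 103, 32.6 and 97.7 in Vector and 159, 128 and 113 in shEZH2. The groups did not overlap, and the value of Vector replicate 2 rested on 28 reads. Its log2 fold change of 0.92 ± 0.43 (SE, interval -0.08 to 1.92, limma adjusted p = 0.245) was the largest of the 10. It shrank to 0.39 (interval -0.0004 to 0.79, limma adjusted p = 0.156) without Vector replicate 2.

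Among the CIP/KIP genes, the means of all 3 libraries differed little between groups. CDKN1A encodes p21, which arrests cells in G1 when induced. It had 5738, 2892 and 5731 normalized counts in Vector and 5516, 4544 and 5152 in shEZH2. Vector replicates 1 and 3 were the highest of the 6 libraries and Vector replicate 2 was the lowest, at 50.4% of their mean. The log2 fold change was accordingly 0.15 ± 0.28 (SE, interval -0.50 to 0.79, limma adjusted p = 0.765) with all libraries and -0.18 (interval -0.40 to 0.04, adjusted p = 0.237) without that library.

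CDKN1B encodes p27, whose amount is largely set by protein turnover. It stood at 725, 368 and 712 normalized counts in Vector and at 548, 581 and 538 in shEZH2. The pattern was that of CDKN1A, with the shEZH2 libraries lying between Vector replicate 2 and the other Vector libraries. A log2 fold change of -0.05 ± 0.26 (SE, interval -0.66 to 0.56, limma adjusted p = 0.921) became -0.37 (interval -0.61 to -0.13, limma adjusted p = 0.0321) without Vector replicate 2, again under 1.5-fold.

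CDKN1C encodes p57, the product of an imprinted gene. Its normalized counts of 108, 95.5 and 116 in Vector and 123, 79.9 and 94.5 in shEZH2 overlapped, the shEZH2 libraries being the highest and the lowest of all. The log2 fold change was -0.12 ± 0.21 (SE, interval -0.61 to 0.37, limma adjusted p = 0.744) and -0.20 (adjusted p = 0.545) without Vector replicate 2.

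Cyclin D1 and its kinases showed no called change. CCND1 had 16337, 27139 and 15597 normalized counts in Vector and 15787, 17603 and 18737 in shEZH2. The highest library was Vector replicate 2, at 170% of the mean of the other Vector libraries, and the remaining 5 libraries lay close together. With all libraries the log2 fold change was -0.14 ± 0.24 (SE, interval -0.70 to 0.42, limma adjusted p = 0.748), and without Vector replicate 2 it was 0.12 (interval -0.09 to 0.33, adjusted p = 0.438), an interval that does not reach 1.5-fold.

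CDK4 had 3424, 1725 and 3595 normalized counts in Vector and 3927, 3865 and 3755 in shEZH2. The shEZH2 libraries were all above the Vector libraries and within a narrow band, with an SD of 87.0 around a mean of 3849. Its log2 fold change of 0.47 ± 0.28 (SE, interval -0.17 to 1.12, limma adjusted p = 0.338) became 0.13 (interval -0.06 to 0.33, adjusted p = 0.338) without Vector replicate 2. CDK6, the longest of the 10 genes in the table at 12260 bases, had 1689, 3182 and 1701 normalized counts in Vector and 1540, 2305 and 2017 in shEZH2. Here Vector replicate 2 was again the highest library, at 188% of the mean of the others. The log2 fold change was -0.12 ± 0.28 (SE, interval -0.77 to 0.53, limma adjusted p = 0.815) and 0.19 (interval -0.12 to 0.49, adjusted p = 0.402) without it.

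**Figure D2:**
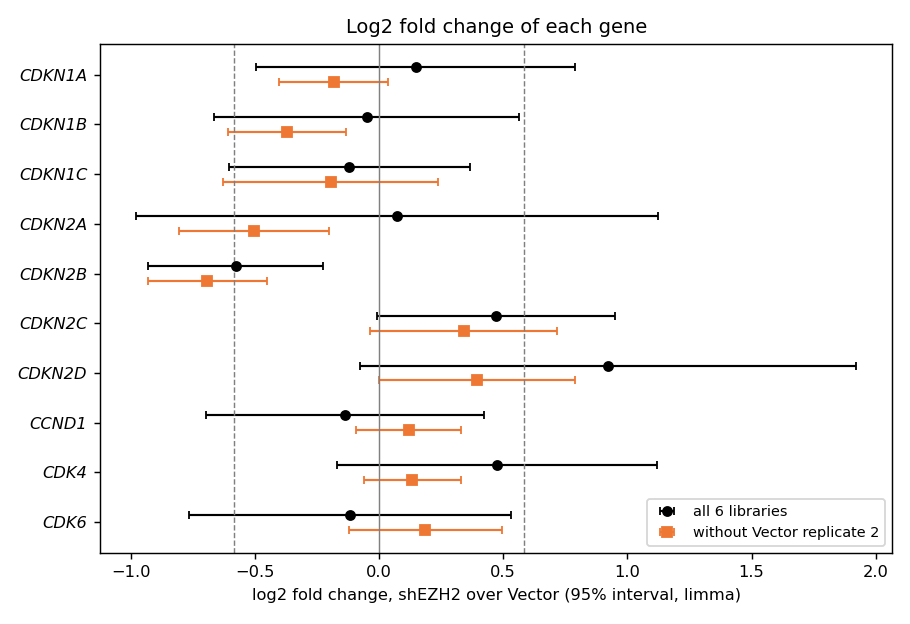
Log2 fold change of each gene, shEZH2 over Vector (x axis), with its 95% interval from limma, for all 6 libraries (black circles) and without Vector replicate 2 (orange squares); dashed lines mark 1.5-fold. CDKN2B is the only gene whose interval lies away from 0 in both fits, and CDKN1A, CDKN2A, CCND1 and CDK6 change sign.

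Without Vector replicate 2, CDKN2B was the 1 of the 10 genes called, against 12.7% of all genes tested. CDKN1B, CDKN2A and CDKN2B had adjusted p-values under 0.05 in limma, all with lower levels in shEZH2, and 18.9% of all genes did so in either direction. The sign of the log2 fold change turned for 4 genes, CDKN1A, CDKN2A, CCND1 and CDK6.

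Vector replicate 2 was the lowest of the 6 libraries for 6 of the 10 genes, namely 5 inhibitors and CDK4, and the highest for CCND1 and CDK6. Its median departure from the other Vector libraries, regardless of direction, was 0.94 on the log2 scale for the 10 genes and 0.47 for all genes. Between Vector replicates 1 and 3 the corresponding median difference was 0.07 for these genes and 0.10 for all. In the plot by gene length, CDKN2D lies in the shortest 20% of genes, CDKN1A, CDKN1B, CDKN1C, CDKN2C and CDK4 in the next 20% and CDK6 in the longest, and the departures ran from -1.59 for CDKN2D to 0.91 for CDK6. CDKN2A and CCND1, of similar length, departed in opposite directions, by -1.73 and 0.77. The part of gene length in these differences was not tested beyond removing the length trend from the values. CDKN2B and CDKN2D, not called before that step, were called after it, among 2058 of the 15251 genes tested.

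**Figure D3:**
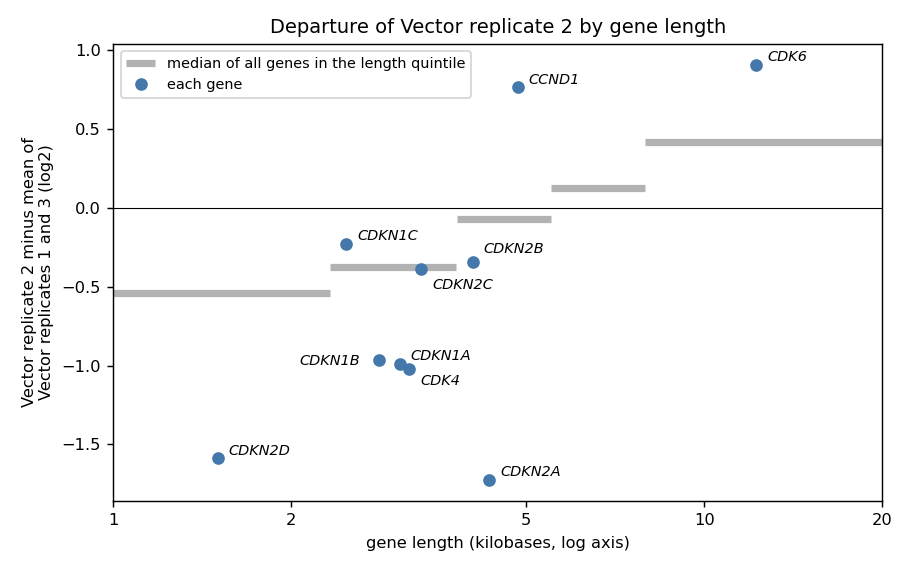
Log2 normalized counts of Vector replicate 2 minus the mean of Vector replicates 1 and 3 (y axis) against gene length in kilobases (x axis, log scale) for the 10 genes, with grey bars for the median of all genes tested in each 20% by length. Most of the 10 genes lie below 0, and CCND1 and CDK6 lie above.

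The levels of different genes were compared as normalized counts per kilobase of gene length. CCND1 was the highest of the 10 in both groups, at 4077 ± 1338 (SD, n = 3) in Vector and 3597 ± 308 in shEZH2, and ranked 92nd among the 15251 genes in Vector. CDKN1A came next at 1570 ± 538 in Vector, followed by CDK4 at 920 ± 326 and CDKN2A at 359 ± 189. Below these stood CDKN2B at 281 ± 37.3, CDKN1B at 214 ± 72.0 and CDK6 at 179 ± 70.0, and the lowest were CDKN2D, CDKN2C and CDKN1C at 51.6 ± 26.0, 43.2 ± 9.81 and 42.9 ± 4.18. In Vector the ranges of neighbours in this order were separate only between CCND1 and CDKN1A, between CDK4 and CDKN2A and between CDK6 and CDKN2D. In shEZH2 the order was the same except that CDKN1B (198 ± 8.17) stood above CDKN2B (188 ± 15.1), whose ranges overlapped. The only other overlap between neighbours in shEZH2 was that of CDKN2B with CDK6.

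CDK4 exceeded CDK6 per kilobase in every library. The ratio was 7.85, 2.10 and 8.18 in Vector and 9.87, 6.49 and 7.20 in shEZH2, so the groups overlapped and Vector replicate 2 was the lowest. CCND1 exceeded CDK4 by 3.13, 10.3 and 2.85 times in Vector and by 2.64, 2.99 and 3.27 times in shEZH2. Apart from Vector replicate 2 the balance of cyclin D1 to CDK4 transcripts therefore lay in the same range in both groups.

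**Figure D4:**
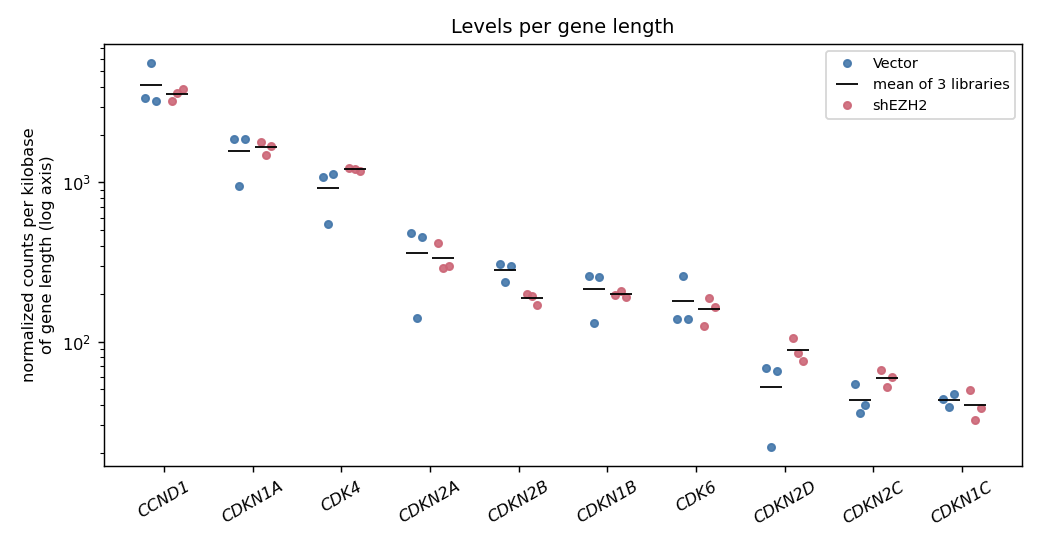
Normalized counts per kilobase of gene length (y axis, log scale) for the 10 genes, ordered by their Vector mean. Points are the 3 Vector and 3 shEZH2 libraries and black dashes are group means. CCND1 has the highest mean and CDKN1C the lowest in both groups. In Vector the ranges of CDKN1C and CDKN2C overlap, with means of 42.9 and 43.2.

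Several of these genes overlap others on the genome, and whether the counting used strand is not given in the sources used here. The span of CDK4 shares 2485 bases with TSPAN31 and 916 with MARCH9 on the opposite strand, which averaged 1208 and 954 normalized counts, so reads in the shared bases cannot be told apart. MARCH9 was higher in shEZH2 by 0.52 on the log2 scale (limma adjusted p = 0.165) and TSPAN31 by 0.13 (adjusted p = 0.711), and the values were 0.33 and -0.09 without Vector replicate 2. CCND1 shares 1399 bases with LTO1, which averaged 336 normalized counts, a small amount beside CCND1. The antisense transcript CDKN2B-AS1 (ANRIL), which overlaps CDKN2B and CDKN2A, averaged 5.67 normalized counts and was below the filter. MTAP, the neighbour often lost together with CDKN2A, was expressed at 939 ± 23.7 in Vector and 1002 ± 134 in shEZH2 (SD, n = 3), and its log2 fold change was 0.09 (limma adjusted p = 0.730) and 0.10 without Vector replicate 2.

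Outside the 10 genes, another D-type cyclin and a part of the genes downstream of the retinoblastoma proteins were called higher, among them 13 of 19 E2F target genes and 4 of 10 E2F and DP factors. CCND3, which encodes cyclin D3, had 307, 214 and 319 normalized counts in Vector and 724, 557 and 593 in shEZH2, a log2 fold change of 1.17 ± 0.20 (SE, limma adjusted p = 0.0252) and 0.98 without Vector replicate 2. CCND2 had at most 2.33 normalized counts in any library. Of all genes tested, 7.55% were called higher and 7.07% lower, and the group counts that follow stand beside these shares. The lists were drawn up with earlier results of these data known, so their counts are a description.

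Most of the 19 E2F target genes serve DNA replication or nucleotide synthesis, and the list also holds the cyclin genes CCNE1, CCNE2 and CCNA2 and MYBL2. Of the 19 genes, 13 rose and 0 fell, 8 of them at a limma adjusted p under 0.05, with a median log2 fold change of 0.80. MCM6, a subunit of the replicative helicase, had 533, 460 and 576 normalized counts in Vector and 1567, 1711 and 1694 in shEZH2. That separation was far wider than the spread within groups, with a log2 fold change of 1.67 ± 0.14 (SE, limma adjusted p = 0.00317). TK1, thymidine kinase, rose by 1.54 and RRM2, a subunit of ribonucleotide reductase, by 1.24 on the log2 scale (limma adjusted p = 0.0158 and 0.00805). CCNE2, encoding cyclin E2, rose by 1.55 from a low level of 17.3 ± 5.90 normalized counts (limma adjusted p = 0.0789). Without Vector replicate 2, 11 rose and 0 fell, with a median of 0.70, and the log2 fold changes of MCM6, TK1, RRM2 and CCNE2 were 1.58, 1.29, 1.17 and 1.71. The targets not called with all libraries were MCM2, MCM7, CDC6, RRM1, ORC1 and CCNA2, from 0.48 for RRM1 to -0.03 for CCNA2.

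E2F and DP factors showed 4 higher and 0 lower of 10. E2F1, an activating factor, had 810, 771 and 777 normalized counts in Vector and 1813, 1501 and 1706 in shEZH2, and rose by 1.08 ± 0.13 on the log2 scale (SE, limma adjusted p = 0.00984). E2F8, E2F2 and TFDP1 rose by 1.03, 0.79 and 0.84 (limma adjusted p = 0.0288, 0.0761 and 0.0528). All 4 were also called without Vector replicate 2. Of the 3 pocket proteins that restrain E2F, limma called 0, with 0 at an unadjusted p under 0.05, and RB1 had a log2 fold change of -0.12 (limma adjusted p = 0.679).

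Regulators of CDK activity other than the inhibitors also moved. Of 7 genes for CDC25 phosphatases, WEE1 kinases and CKS proteins, 3 rose and 0 fell. CDC25A, which activates CDK2, rose by 0.77 on the log2 scale, and WEE1 and PKMYT1, the kinases that inhibit CDK1, rose by 0.93 and 0.90 (limma adjusted p = 0.0422, 0.0142 and 0.0246). The members that rose thus act on CDKs in opposite directions. Without Vector replicate 2 the list again had 3 higher and 0 lower, and the values of CDC25A, WEE1 and PKMYT1 were 0.86, 0.98 and 0.84. Of 10 cyclins and kinases of later phases, CCNE1 and CCNE2 rose and none fell, CCNE1 by 1.04 (limma adjusted p = 0.0544), while CDK2 had 7912 ± 1758 and 8515 ± 370 normalized counts in Vector and shEZH2 (SD, n = 3). Both CCNE1 and CCNE2 were already counted among the E2F target genes. The value of CCNE1 was 0.82 without Vector replicate 2, where the list again had 2 higher and 0 lower. In the MuvB and FOXM1 list MYBL2, also counted among the E2F target genes, was the 1 of 7 called, rising by 0.89 (limma adjusted p = 0.0252), and by 0.99 without that library. Of 7 proliferation markers 0 rose and MKI67 fell, by 1.00 on the log2 scale (limma adjusted p = 0.174), from 1207, 3300 and 1261 to 696, 956 and 938 normalized counts. Vector replicate 2 was far the highest there, and without it the change was -0.53 and was not called.

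**Figure D5:**
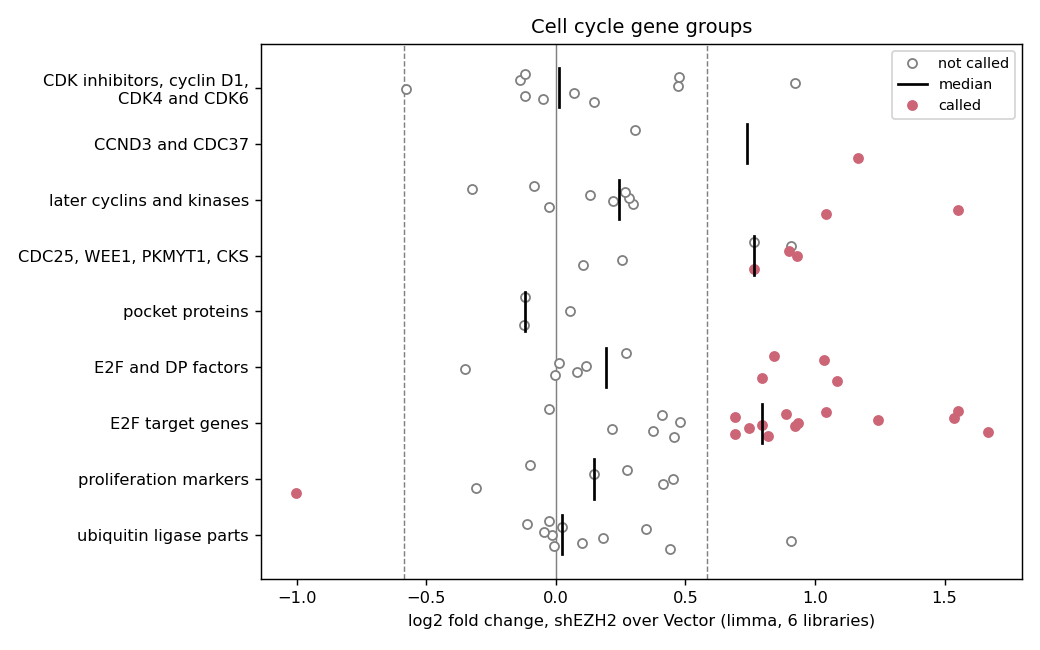
Log2 fold change, shEZH2 over Vector (x axis), of each tested gene in the 10 genes described and in 8 other cell cycle lists (rows). Filled points were called, open points were not, black bars are medians and dashed lines mark 1.5-fold. None of the 10 genes is called, and 13 of 19 E2F target genes are called, all higher. Genes that belong to several lists, such as CCNE1 and CCNE2, are drawn in each.

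Of 11 parts of the ubiquitin ligases that turn over p27, p21 and cyclin D1, none was called in limma, with 0 at an unadjusted p under 0.05. SKP2, which targets p27, had 358 ± 7.37 and 358 ± 37.4 normalized counts in Vector and shEZH2 (SD, n = 3).

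The genes whose profile over the 6 libraries was most like each of the 10 were found by the root mean square difference of centred log2 values among 11891 genes with a mean of at least 50. For CDKN2B these were PPP1R2 and TESK2, which differed by 0.05 and 0.06, and whose means were 518 and 306 normalized counts in Vector and 345 and 202 in shEZH2. The nearest to CDKN1A was GYPC (0.02), to CDKN1B EID1 (0.04), to CDKN1C MRPL38 (0.05) and to CDKN2A HES4 (0.07). FZD8 was nearest to CDKN2C (0.06), CSNK2B to CDKN2D (0.07), UBE3B to CCND1 (0.03), HAUS4 to CDK4 (0.03) and NRIP1 to CDK6 (0.04). The likeness covers 6 libraries that share their depth and the departure of Vector replicate 2, and it says nothing of shared function.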

How the data were processed

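RNA sequencing libraries of HMV-II cells, 3 Vector and 3 shEZH2, were compared. Per the labels, featureCounts v1.5.0-p3 assigned reads to genes, and the submitters' processing notes name DESeq2 1.20.0 and hg19; the aligner and strandedness are not given in the sources used here. The deposited table holds signal values, reads per gene divided by 1 size factor per library, and the gene length in bases that the authors gave. Its coordinates are printed as deposited, without converting between builds, and fit the gene starts of RefSeq GRCh38.p14 and not those of hg19, with an exact match at CDKN2C. All values were whole multiples of the smallest in their library (100%, tolerance 0.01), which returned whole reads. Columns with the authors' fold changes and p-values were not used, and 0 library columns were left unmapped.

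Genes averaging 10 normalized counts or more (15251) were fitted as log2(value + 1) with limma 3.58.1 (R 4.3.3; eBayes with a trend), and p-values were adjusted by Benjamini-Hochberg over all genes. Fold changes are on this scale, which understates the change of low genes. Genes were called at an unadjusted p under 0.05 with over 1.5-fold change. edgeR 4.0.16 and DESeq2 1.42.0 on the recovered reads were alternatives. The fits were tested on simulated data, drawn with the same spread in all 6 libraries and no length trend. That test therefore does not cover a departure like that of Vector replicate 2. The named genes were the 10 genes, EZH2, up to 4 called genes per list by size of change, neighbours or genes of a role beside the 10, and the nearest profiles; the genes and lists were chosen with earlier results of these data known. Some genes of the lists are not reported here.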

Additional observations from a re-analysis of the deposited data

How the results depend on the processing

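The number of the 10 genes called was 0 with limma and all 6 libraries, and was also 0 with pseudocounts of 0.1 and 5, a mean of at least 50, TMM scaling, an adjusted p and a 2-fold change. It was 1 with no minimum mean (CDKN2D), with edgeR under TMM or RLE factors and with DESeq2 (CDKN2B), and 2 with the gene length trend removed (CDKN2B and CDKN2D). Of all 15251 genes tested, 2229 were called in limma with all 6 libraries. The count was 2277 and 2273 with edgeR under TMM and RLE, 2366 with DESeq2 and 2058 with the length trend removed. With no minimum mean it was 3311 of 30015. When libraries were left out 1 at a time the number of the 10 genes called ranged from 0 to 2, with CDKN2B called without Vector replicate 2 and without shEZH2 replicates 1 or 2, CDKN2D without Vector replicates 1 or 3, and CDKN2C without Vector replicate 1. Those fits called 1622 (without shEZH2 replicate 1) to 2843 (without Vector replicate 1) of the 15251 genes. The log2 fold change of CDKN2B stayed below 0 in all 16 refits, from -0.69 to -0.51, with limma, edgeR or DESeq2 adjusted p from 0.000965 to 0.312, and that of EZH2 ran from -1.13 to -0.96 (adjusted p from 5.94e-08 to 0.128). CDKN2C, CDKN2D and CDK4 stayed above 0 in the same refits. With the length trend removed, the log2 fold change turned to -0.022 for CDKN1A, -0.022 for CDKN2A and 0.075 for CDK6. CDKN2A was also -0.10 with edgeR under TMM, -0.11 under RLE and -0.11 with DESeq2. Over the fits that left out 1 library, values ran from -0.18 to 0.31 for CDKN1A, -0.37 to 0.12 for CDKN1B, -0.285 to 0.022 for CDKN1C, -0.50 to 0.38 for CDKN2A, -0.28 to 0.12 for CCND1 and -0.27 to 0.19 for CDK6. The cause of these turns was not tested. Over all genes, 1151 were higher and 1078 lower; these became 345 and 279 with an adjusted p in the call rule and 463 and 335 with a 2-fold change, and the called genes of the pathway lists went from 35 to 21 and 13. At any fold, 348 genes were higher and 281 lower at an adjusted p under 0.05 in limma, 770 and 874 with DESeq2, 627 and 659 with the length trend removed, 263 and 197 with no minimum mean and 1491 and 1384 without Vector replicate 2, and leaving out any other library left 3 to 125 and 1 to 54. Same-numbered libraries did not deviate together in every case (correlations 0.28, 0.22 and -0.11), and not every library correlated best with its own number, so the numbers were not taken to pair them. With a replicate block 1 of the 10 genes was called (CDKN2D), against 2434 of all 15251. In that fit 224 genes were higher and 200 lower at a limma adjusted p under 0.05. Depth limits CDKN2D most, with 28 reads in Vector replicate 2.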

Other observations

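Of the transcription factors known to act on the genes of the CDK inhibitors and cyclin D1, TP73 had 3.93 ± 2.15 normalized counts in Vector and 24.9 ± 3.26 in shEZH2 (SD, n = 3). It passed the filter on low values only through its shEZH2 libraries, so no test is given. FOXO1 fell by 0.71 on the log2 scale (limma adjusted p = 0.0701) and was no longer called without Vector replicate 2, at -0.55. Of the genes used to mark senescent cells, LMNB1, whose loss is used as such a mark, rose by 0.585 on the log2 scale (limma adjusted p = 0.0497), just past the fold threshold, and was not called without Vector replicate 2, at 0.575. CXCL8 fell by 0.85 (limma adjusted p = 0.0476; -1.01 without that library), and IL6 had at most 2.86 normalized counts in any library.

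Among the neighbours of CDKN2A and CDKN2B, DMRTA1 fell. It had 189, 162 and 207 normalized counts in Vector and 88.6, 95.03 and 102 in shEZH2 (log2 fold change -0.95, limma adjusted p = 0.0271, and -1.05 without Vector replicate 2). ELAVL2 had 3.54 ± 1.51 normalized counts in Vector and 17.7 ± 2.80 in shEZH2 (SD, n = 3) and, like TP73, passed the filter only through shEZH2, so no test is given. AGAP2 was the 1 of 11 neighbours of CDK4 called (log2 fold change 0.83, limma adjusted p = 0.133). Without Vector replicate 2 it was at 0.635 and still called higher, and 1 neighbour, CYP27B1, was called lower. Of 8 neighbours of CCND1 limma called 0, with 1 at an unadjusted p under 0.05, and of 4 imprinted neighbours of CDKN1C it called 0, with 0 at that level. Of 8 melanocyte lineage genes, TYRP1 and MLANA rose by 1.68 and 0.88 and TYR fell by 0.97 on the log2 scale (limma adjusted p = 0.00317, 0.214 and 0.0532), and without Vector replicate 2 TYRP1 and TYR were at 1.64 and -1.22 and MLANA was not called.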
